A study of Mus musculus with 25 samples.

Results

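Genes encoding chromatin and DNA methylation regulators were taken by symbol: the numbered Kdm, Hdac, Sirt, Dnmt, Cbx, Arid, Chd and Mbd genes, all Smarc genes, Tet1 to Tet3, Ezh1, Ezh2, Eed, Suz12, Bmi1, Ring1 and Rnf2. The rule found 98 of the 24439 genes in the RNA-seq tables, under 97 symbols because Hdac4 stands there as 2 gene models, and 423 of the 65053 open chromatin peaks, which are annotated to 91 such symbols as the nearest gene. The study compared 2 mouse pancreatic islet lines: αTC1 clone 6, a glucagon-secreting line that is a single clone, and βTC6 (beta-TC-6), an insulin-secreting line. Both came from islet tumours of transgenic mice carrying the SV40 T antigen, so both are dividing tumour cells. αTC1 cells were grown in medium with 10% fetal bovine serum and 2 g/L of added glucose, and βTC6 cells in another medium with 15% serum and added pyruvate, so line and medium cannot be told apart. RNA-seq was done on 3 replicates of each line. ATAC-seq, which reads out DNA that a transposase can reach, was done on 5 replicates of each line and on 9 mixtures holding 10% to 90% αTC1 cells.

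These proteins set how accessible DNA is and how it is marked. DNA methyltransferases place methyl groups on cytosine and TET enzymes oxidise them, histone deacetylases and demethylases remove marks from histone tails, Polycomb complexes and heterochromatin proteins hold genes silent, and SWI/SNF, CHD and ISWI enzymes use ATP to move nucleosomes. In islets, DNA methylation, Polycomb and deacetylase activity bear on beta cell identity and growth.

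The RNA-seq libraries held between 21954031 and 26033482 expected counts. The ATAC-seq libraries of the pure lines held between 4397851 and 10374903 reads in peaks. The lines carried the hormone genes of their labels: Gcg, encoding glucagon, was at 12113 to 14406 FPKM (sequenced fragments scaled by transcript length and library size) in αTC1, and Ins2, encoding insulin, at 23541 to 35748 FPKM in βTC6. βTC6 also held Gcg at 172 to 267 FPKM and Sst, the delta cell hormone, at 207 to 325 FPKM. Ppy, the hormone of PP cells, was at 3.7 to 50.81 FPKM in βTC6 and 0.09 to 0.1 FPKM in αTC1. The 3 duct markers summed to 26.7 to 49.9 FPKM in βTC6, with Krt19 under 0.1 FPKM throughout, and to 5.51 to 5.8 FPKM in αTC1. Of these duct markers, 1 was higher and 1 lower in βTC6, so the sum covers opposite changes. Immune markers summed to at most 2.19 FPKM, acinar markers to at most 3.73, fibroblast markers to at most 2.33 and endothelial markers to at most 0.29 FPKM in any library. The part of such cells or programmes in the differences was not tested. The αTC1 RNA-seq replicates 1 and 2 differed far less than any other pair, with a chi-square per degree of freedom of 2.06 against 17.3 to 38.4 for the other pairs within a line, and αTC1 replicate 3 differed from them by 27.8 and 29.3, within the range of the βTC6 pairs. That value of 2.06 is above sampling noise, and the libraries were kept as separate samples. In ATAC-seq, replicates 1 to 3 of each line lay close together (2.05 to 2.55 per degree of freedom) and apart from replicates 4 and 5 (4.47 to 11.3). Replicates 4 and 5 differed from each other by 4.72 in αTC1 and by 8.52 in βTC6, more than any other βTC6 pair. Counts within replicates 1 to 3 and within 4 and 5 are given with the peaks. The labels do not say that replicates were separate cultures, so p-values measure the spread between these libraries, which may be technical.

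Chromatin regulators were more often lower than higher in βTC6, but few changed much. Of the 98 genes, 91 reached an FPKM of 1 or more in every replicate of αTC1 or of βTC6, and were tested with edgeR's quasi-likelihood test, with Benjamini-Hochberg adjustment over all 12195 genes that passed. At a false discovery rate (FDR) under 5%, 24 of the 91 were higher in βTC6, or 26.4%, against 38.7% of all genes tested, and 42 were lower, or 46.2%, against 36% of all genes. With a log2 fold change over 1 as well, 7 were higher (7.69%, against 19.1% of all genes) and 14 were lower (15.4%, against 12.5%). Over 2, only Hdac5 was higher (1.10%, against 10.2%) and Kdm3a, Smarcd3 and Hdac4 were lower (3.30%, against 4.08%). The median log2 fold change, always given as βTC6 over αTC1, was -0.21 over the 91 regulators and 0.01 over all genes. The count of 7 became 11 without αTC1 replicate 3, by the addition of Sirt2, Hdac6, Kdm6a and Tet1. Scaled to the total of the added spike-in RNA, 6 were higher and 13 lower at an FDR under 5%. Dnmt3b, Dnmt3l, Kdm4d, Kdm5d, Mbd3l1, Mbd3l2 and Arid3c did not pass the filter.

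**Figure D1:**
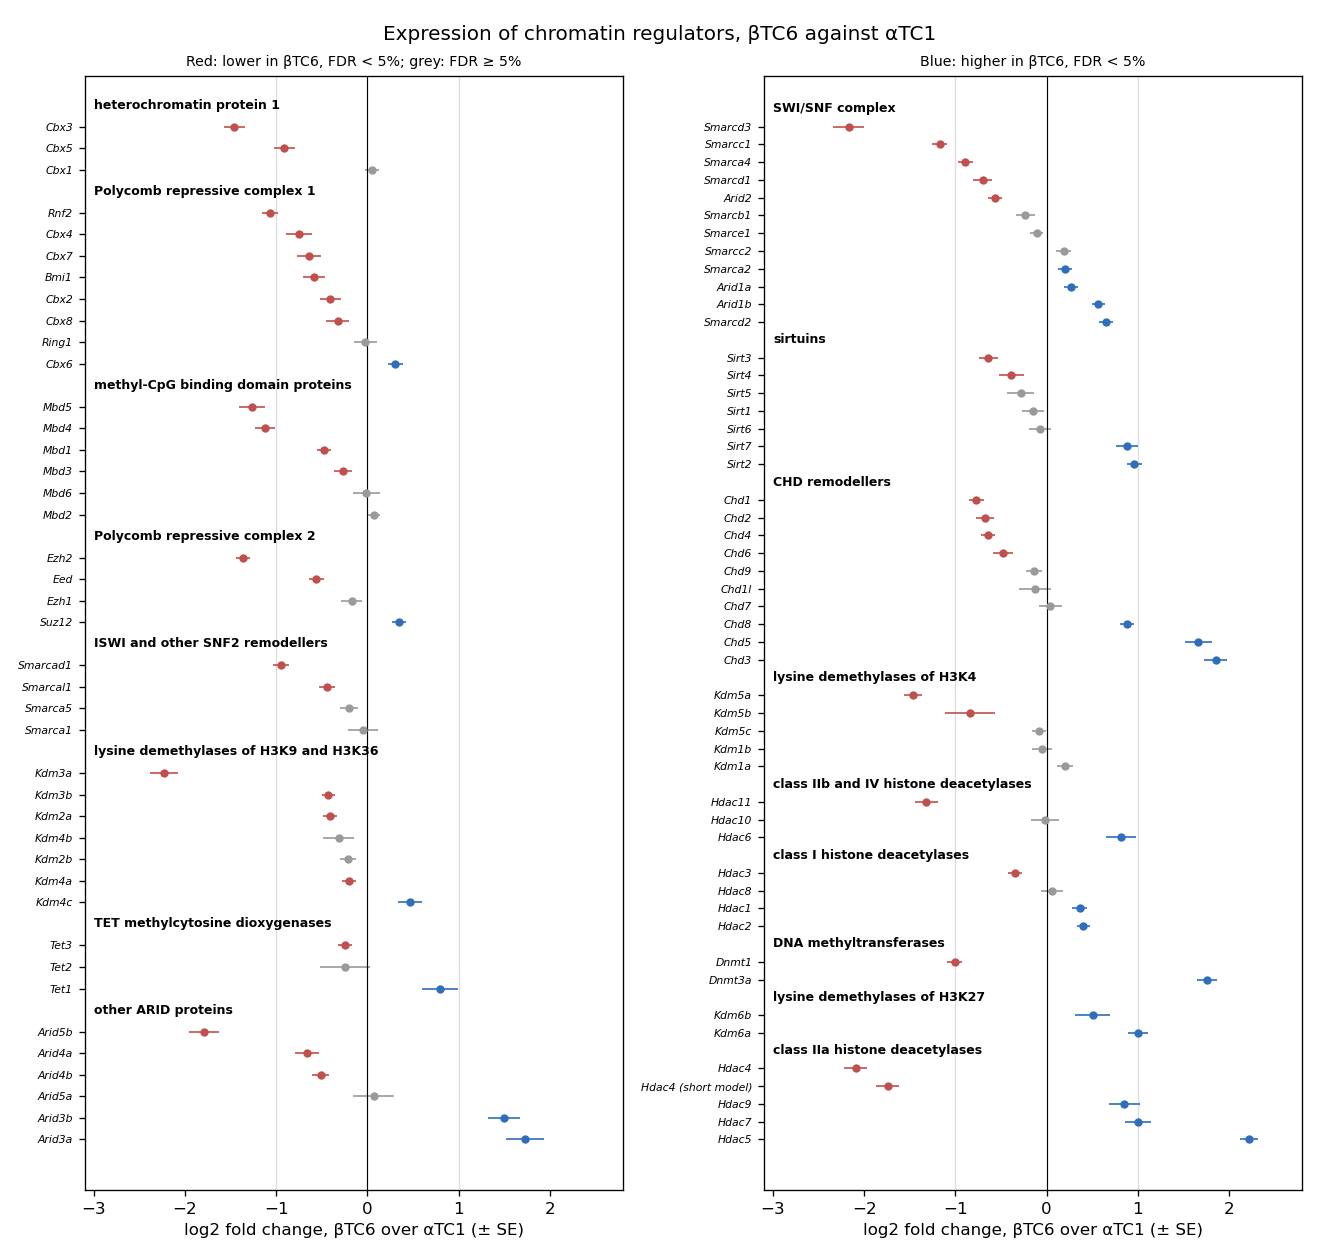
Log2 fold change of expression (βTC6 over αTC1, x axis, ± SE from edgeR) of the 91 regulators tested, grouped by role. Of these, 24 lay above 0 in blue and 42 below 0 in red at an FDR under 5%, and the other 25, in grey, did not pass; points right of 1 were Hdac5, Chd3, Dnmt3a, Arid3a, Chd5, Arid3b and Hdac7.

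The 2 DNA methyltransferases that were tested moved in opposite directions. Dnmt1, which copies methylation to the new strand after replication, had 108, 106 and 97.2 FPKM in the αTC1 replicates and 52.0, 48.8 and 47.9 FPKM in βTC6. No βTC6 library reached the lowest αTC1 library, and the log2 fold change was -1.01 (SE 0.08, adjusted p = 4.21e-06 from edgeR). Dnmt3a, which methylates unmethylated DNA, had 9.3, 10.3 and 13.4 FPKM in αTC1 and 34.1, 30.8 and 33.9 FPKM in βTC6. Its groups did not overlap either, with a log2 fold change of 1.76 (SE 0.11, adjusted p = 9.16e-07 from edgeR). The FPKM of Dnmt1, a per-length level, was above that of Dnmt3a in all 6 libraries, by a far smaller margin in βTC6. Dnmt3b stood at the edge of the filter, at 0.98 to 1.29 FPKM in αTC1 and 0.90 to 1.63 FPKM in βTC6, and the catalytically inactive partner Dnmt3l was at or below 0.04 FPKM in all 6 libraries.

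No TET gene and 2 of the methyl-CpG binding domain genes changed by a log2 fold change over 1. Tet3 was the most abundant TET gene, at 6.45 to 7.09 FPKM in αTC1 and 4.73 to 5.64 FPKM in βTC6, and was lower in βTC6 by a log2 fold change of -0.25 (adjusted p = 0.0226 from edgeR). That call was lost with αTC1 replicates 1 and 2 counted as 1 sample (adjusted p = 0.0530) and without any one of 4 libraries (0.0511 to 0.0708), αTC1 replicates 1 and 3 and βTC6 replicates 2 and 3. Tet2 had 3.24, 2.72 and 6.38 FPKM in αTC1, where replicate 3 was high, and 2.71 to 3.35 FPKM in βTC6, and did not pass (log2 fold change -0.24, adjusted p = 0.433 from edgeR). Tet1 was higher in βTC6 on counts, with a log2 fold change of 0.79 (SE 0.20, adjusted p = 0.00542 from edgeR). Its FPKM hardly differed, at 1.0 to 1.41 in αTC1 and 1.33 to 1.66 in βTC6, and on log2(FPKM + 1) limma gave 0.17 (adjusted p = 0.208), so the Tet1 call rests on the counts. Of the 6 methyl-CpG binding domain genes tested, 4 were lower and none was higher, where 36% of all genes tested were lower and 38.7% higher. They were Mbd5 (log2 fold change -1.26), the thymine glycosylase gene Mbd4 (-1.12), Mbd1 (-0.47) and Mbd3 (-0.26), a subunit of the NuRD deacetylase complex and the most abundant of them at 86.3 to 117 FPKM. The Mbd3 call was lost without any library but βTC6 replicate 3 (adjusted p = 0.0514 to 0.118 from edgeR).

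Within Polycomb, Ezh2 and Rnf2 fell and their paralogs Ezh1 and Ring1 did not pass. Ezh2, the methyltransferase of Polycomb repressive complex 2, had 105, 99.0 and 100.0 FPKM in αTC1 and 37.7, 39.2 and 36.1 FPKM in βTC6. The libraries of the lines were far apart and close to each other within a line, with a log2 fold change of -1.36 (SE 0.08, adjusted p = 6.01e-07 from edgeR). Its close relative Ezh1 was at 8.97 to 14.2 FPKM over the 6 libraries, with overlapping groups (log2 fold change -0.17, adjusted p = 0.208 from edgeR). The non-catalytic partners went different ways, Eed down by a log2 fold change of -0.56 and Suz12 up by 0.35 (adjusted p = 2.16e-04 and 0.00237 from edgeR). In Polycomb repressive complex 1, 6 of 8 genes were lower and 1 was higher, where 36% of all genes tested were lower and 38.7% higher. Rnf2, its ubiquitin ligase, fell from 26.3 to 26.6 FPKM in αTC1 to 11.1 to 13.1 FPKM in βTC6 (log2 fold change -1.07, adjusted p = 4.37e-06 from edgeR), while the paralog Ring1 did not pass (-0.02). Cbx6 was the 1 higher gene, at 52.3 to 59.9 FPKM in αTC1 and 63.1 to 71.5 FPKM in βTC6.

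Because Dnmt1 and Ezh2 follow the cell cycle, genes of dividing cells were read beside them. Of 8 such genes, 4 were lower and 1 was higher in βTC6, where 36% of all genes tested were lower and 38.7% higher. Mcm2 had a log2 fold change of -1.13, Mki67 -0.43, Top2a -0.40 and Mcm5 0.69, with a median of -0.32 over the 8. Their summed level was 1380 to 1594 FPKM in αTC1 and 1094 to 1366 FPKM in βTC6. Their part in the differences of Dnmt1 and Ezh2 was not tested.

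Of the heterochromatin protein 1 genes, whose products bind methylated histone H3, Cbx3 had the highest FPKM in both lines. It had 232, 226 and 187 FPKM in αTC1 and 69.9, 80.6 and 67.3 FPKM in βTC6 (log2 fold change -1.46, SE 0.11, adjusted p = 3.68e-06 from edgeR). Cbx5 also fell (-0.91), whereas Cbx1 stood between 52.4 and 55.9 FPKM in all 6 libraries and did not pass (0.05).

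The class IIa deacetylases, which shuttle between nucleus and cytoplasm and act through partner complexes, held the largest opposite changes. Hdac5 had 6.96, 7.17 and 8.34 FPKM in αTC1 and 31.2, 31.2 and 36.2 FPKM in βTC6. It was thus 4.66-fold higher in βTC6 with no overlap of the groups (log2 fold change 2.22, SE 0.10, adjusted p = 1.25e-07 from edgeR). Hdac4 ran the other way. Its main model (ENSMUSG00000026313, chr1:93829334-94044970, minus strand, mm9) had 19.6, 19.7 and 24.6 FPKM in αTC1 and 4.96, 5.12 and 4.33 FPKM in βTC6. That was 4.27-fold lower (log2 fold change -2.09, SE 0.12, adjusted p = 5.90e-07 from edgeR), and -1.97 without αTC1 replicate 3. The short model downstream of it (ENSMUSG00000073617, chr1:93825362-93827753) showed -1.74, and reads shared between the models cannot be told apart. Hdac7 (log2 fold change 1.0) and Hdac9 (0.85) were also higher in βTC6, Hdac9 from low levels of 1.2 to 1.74 FPKM in αTC1 and 2.15 to 2.73 FPKM in βTC6.

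Of the other deacetylases, only Hdac11 changed by a log2 fold change over 1. Among the class I enzymes, Hdac1 and Hdac2 were higher (log2 fold changes 0.36 and 0.40) and Hdac3 was lower (-0.35), with Hdac2 at 68.8 to 73.1 FPKM in αTC1 and 88.2 to 99.2 FPKM in βTC6. Hdac11, the class IV enzyme, fell from 34.5 to 37.0 FPKM in αTC1 to 10.1 to 15.5 FPKM in βTC6 (log2 fold change -1.32, SE 0.13, adjusted p = 1.23e-05 from edgeR). Hdac6, the cytoplasmic tubulin deacetylase, had 39.2, 37.7 and 57.2 FPKM in αTC1 and 67.9 to 82.2 FPKM in βTC6. Its log2 fold change was 0.81 (SE 0.16, adjusted p = 0.00149 from edgeR), and 1.04 without αTC1 replicate 3. Of the 7 sirtuins, NAD-dependent deacylases, Sirt2 (0.96) and the nucleolar Sirt7 (0.88) were higher and the mitochondrial Sirt3 (-0.64) and Sirt4 (-0.39) were lower. Sirt1 had 14.58 to 17.61 FPKM in αTC1 and 9.52 to 14.5 FPKM in βTC6, ranges that nearly touched, and did not pass (-0.14, adjusted p = 0.301 from edgeR), though it did with limma on log2(FPKM + 1) (adjusted p = 0.0311).

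Histone demethylases of H3K9 and H3K36 included the regulator with the largest fall, Kdm3a, though Smarcd3 (-2.17) lay within its SE. Kdm3a, an H3K9 demethylase (ENSMUSG00000053470, chr6:71538968-71582899, minus strand, mm9), had 52.7, 52.4 and 79.1 FPKM in αTC1 and 12.5, 12.2 and 13.6 FPKM in βTC6. Replicate 3 of αTC1 was the highest, and no library of one line came near the other. The log2 fold change was -2.23 (SE 0.15, adjusted p = 1.52e-06 from edgeR), and -2.02 without that replicate, where Smarcd3 was at -2.03. In this group 4 of 7 tested genes were lower and only Kdm4c was higher (0.46), where 36% of all genes tested were lower and 38.7% higher. Among H3K4 demethylases, Kdm5a fell from 47.5 to 50.2 FPKM to 16.1 to 21.3 FPKM (log2 fold change -1.46, adjusted p = 1.56e-06 from edgeR). Kdm1a, the most abundant, had overlapping groups at 52.8 to 60.2 FPKM over the 6 libraries and did not pass (0.20, with an adjusted p of 0.0343 from edgeR without βTC6 replicate 3). The X-linked Kdm5c did not pass (-0.08), and its Y-linked partner Kdm5d was at or below 0.02 FPKM in all 6 libraries. Kdm6a and Kdm6b, demethylases of H3K27, were higher in βTC6. Kdm6a had 3.81 to 4.96 FPKM in αTC1 and 7.38 to 8.25 FPKM in βTC6 (log2 fold change 1.0, adjusted p = 3.50e-05 from edgeR). Kdm6b had overlapping groups, with 9.05 FPKM in αTC1 replicate 3 above the lowest βTC6 library (log2 fold change 0.51, adjusted p = 0.0376 from edgeR), and it did not pass when αTC1 replicates 1 and 2 were counted as 1 sample (adjusted p = 0.109) or without any one of αTC1 replicates 1 and 2 and βTC6 replicates 1 and 3 (0.104 to 0.127).

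Several values above were highest in αTC1 replicate 3. It lay over 1.3 times above the mean of αTC1 replicates 1 and 2 for 13 of the 91 regulators, or 14.3%, close to the 11.3% of all genes tested, among them Kdm5b at 9.55 against 4.75 and 4.39 FPKM, Tet2, Kdm4b, Kdm6b, Hdac6 and Kdm3a. A list of 12 genes known to respond to low oxygen, chosen after their values had been seen, lay 1.3 to 3.06 times above in the same library, for example Slc2a1, a glucose transporter, at 68.7 against 30.1 and 30.8 FPKM. The list also differed between the lines: 8 of the 12 were lower in βTC6 by a log2 fold change over 1 and 2 higher, where 12.5% and 19.1% of all genes tested were. Their median was -1.63, and their sum was 667 to 1447 FPKM in αTC1 and 321 to 347 FPKM in βTC6. Choosing genes with their values known, all raised in an αTC1 library, favours such a difference. Its part in the fall of Kdm3a, a gene known to respond to low oxygen, was not tested. Whether the culture of αTC1 replicate 3 differed was not tested.

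The SWI/SNF remodeller changed in parts. Its ATPase Smarca4 had 68.2, 70.3 and 74.4 FPKM in αTC1 and 39.1, 33.1 and 37.6 FPKM in βTC6 (log2 fold change -0.89, SE 0.08, adjusted p = 1.09e-05 from edgeR). The alternative ATPase Smarca2 was at 48.7 to 51.2 FPKM in αTC1 and 56.2 to 70.5 FPKM in βTC6 (0.20, adjusted p = 0.0295 from edgeR). The Smarca2 call was lost with αTC1 replicates 1 and 2 counted as 1 sample (adjusted p = 0.126) and without any one of αTC1 replicates 1 and 2 and βTC6 replicates 1 and 2 (0.0596 to 0.146). The Smarca4 level was thus above that of Smarca2 in every αTC1 library and below it in every βTC6 library. The core subunit Smarcc1 also fell (-1.17), while Smarcb1, another core subunit, had 54.1 to 57.1 FPKM in βTC6 and 61.8 to 77.3 FPKM in αTC1 and did not pass (-0.23, adjusted p = 0.0650 from edgeR), though it did with limma on log2(FPKM + 1) (adjusted p = 0.0411) and without αTC1 replicate 2 (0.0498). The 3 interchangeable Smarcd subunits differed in direction. Smarcd3 (ENSMUSG00000028949, chr5:24096636-24107830, minus strand, mm9) had 9.69, 9.76 and 11.1 FPKM in αTC1 and 2.2, 2.51 and 2.46 FPKM in βTC6 (log2 fold change -2.17, SE 0.17, adjusted p = 3.40e-06 from edgeR). Smarcd1 was lower (-0.70) and Smarcd2 higher (0.65). Of the large ARID subunits, Arid1a (0.27) and Arid1b (0.57) were higher and Arid2 (-0.56) was lower.

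**Figure D2:**
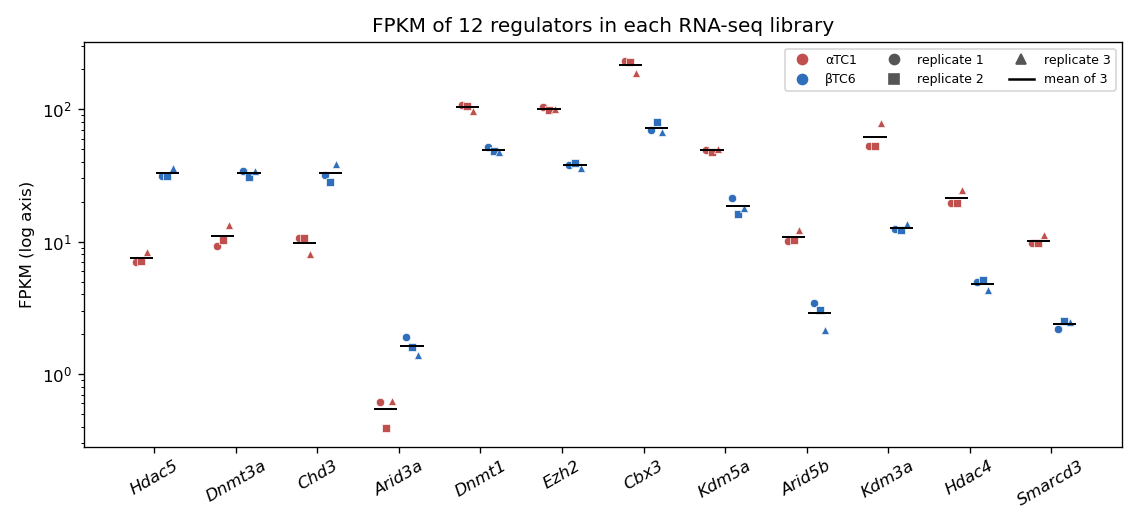
FPKM (y axis, log scale) of 12 regulators in each of the 3 αTC1 (red) and 3 βTC6 (blue) RNA-seq libraries, with a bar at the mean of 3; the marker shape gives the replicate. The lines do not overlap for any of these 12 chosen regulators, though they do for others, such as Tet2 and Kdm6b. The share without overlap over all regulators was not counted. The triangle of αTC1 replicate 3 stands above the other αTC1 libraries for Kdm3a, at 79.1 FPKM.

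Among the 10 CHD remodellers, 3 were higher and 4 lower, near the 38.7% and 36% of all genes tested. Chd3 and Chd4 are alternative ATPases of NuRD. Chd3 rose from 8.10 to 10.7 FPKM in αTC1 to 28.1 to 38.5 FPKM in βTC6 (log2 fold change 1.85, SE 0.12, adjusted p = 1.30e-06 from edgeR), and Chd4, the more abundant, fell from 121 to 124 FPKM to 74.6 to 75.2 FPKM (-0.64, adjusted p = 5.23e-05). Chd5, known from neurons, rose from a low level of 1.06 to 1.38 FPKM to 3.33 to 3.89 FPKM (1.67). The ISWI ATPases Smarca5 (-0.21) and Smarca1 (-0.05) did not pass, though Smarca5 did without αTC1 replicate 3 (adjusted p = 0.0231 from edgeR) or βTC6 replicate 2 (0.0416) and with limma on log2(FPKM + 1) (-0.33, adjusted p = 0.0109), and Smarcad1, which works on nucleosomes behind the replication fork, was lower (-0.94). Of the other ARID proteins, Arid5b fell from 10.1 to 12.2 FPKM to 2.14 to 3.43 FPKM (-1.79, SE 0.16, adjusted p = 8.30e-06 from edgeR). Arid3a and Arid3b were higher (1.73 and 1.5), each from low levels in αTC1, Arid3a at 0.39 to 0.63 FPKM and Arid3b at 0.95 to 1.21 FPKM. These 2 of the 7 genes higher by over 1 passed the FPKM filter through βTC6 only, so that the filter favoured a difference, and the other 89 regulators tested passed it in both lines.

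Many members that fell sit on chromosomes where other genes fell too. On chromosome 6, the median log2 fold change of the 570 other genes tested was -0.76 and that of 4261 other peaks -0.78. All 9 regulators tested there had negative values, with a median of -1.32: Kdm3a, Cbx3, Kdm5a, Ezh2, Hdac11, Mbd4, Smarcad1, Chd4 and Tet3. On chromosome 1, home of Hdac4 and Rnf2, the median of the other genes was -0.66. On chromosome 11, which carries Hdac5, Chd3 and Suz12, it was 0.49, and on chromosome 14, which carries Chd8, it was 1.2. Measured from the median of its own chromosome, 6 called regulators changed sign: Chd8 (0.88) went to -0.32, Suz12 and Smarca2 also fell below 0, and Smarcal1 (-0.44) went to 0.22, with Tet3 and Chd4 also above 0. With each gene set against its chromosome, 8 regulators lay over 1 above and 8 over 1 below, in place of 7 and 14, and only Smarcd3 lay beyond 2, at -2.44. The median over the regulators tested hardly moved, from -0.21 to -0.19. The shares of all genes past these limits were not counted on this scale. The values for Kdm3a, Hdac4 and Hdac5 became -1.48, -1.43 and 1.74. The part of chromosome-wide differences, such as copy number, in these values was not tested.

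**Figure D3:**
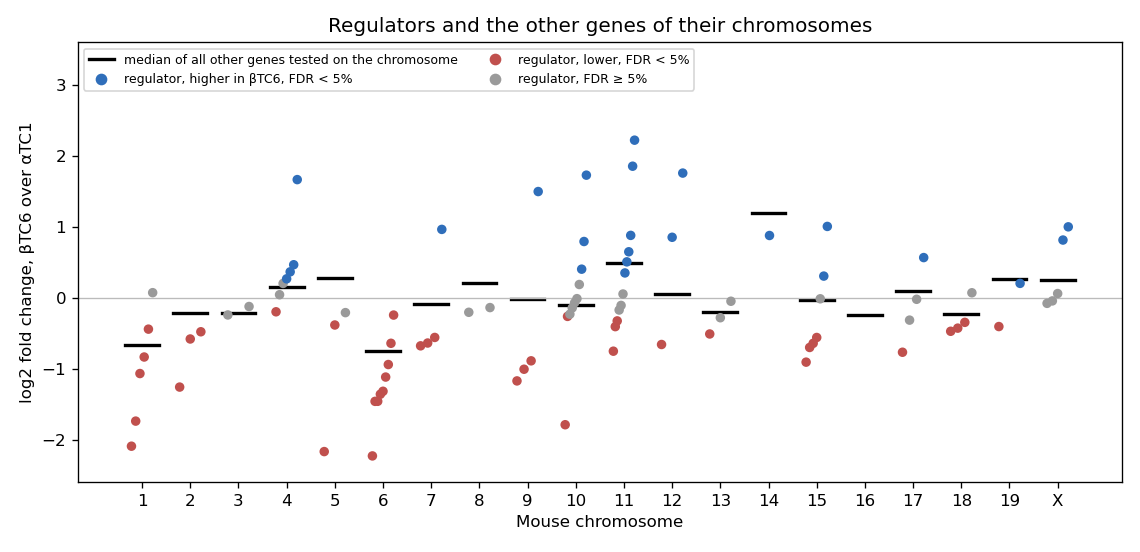
Log2 fold change (βTC6 over αTC1, y axis) of each of the 91 regulators (points) by mouse chromosome (x axis), with a black line at the median of the other genes tested on that chromosome. All 9 points of chromosome 6 lie below 0, where the line is at -0.76, and the line of chromosome 14 is at 1.2.

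Other genes of the same machinery, from lists of histone acetyltransferases, methyltransferases, further Polycomb, SWI/SNF and deacetylase complex subunits and DNA methylation genes, were counted in the same way. Of 105 tested, 28 were higher and 50 lower at an FDR under 5%, where 38.7% and 36% of all genes were, and 7 were higher and 8 lower by a log2 fold change over 1, where 19.1% and 12.5% of all genes were. Among 29 lysine methyltransferases, 5 were higher and 18 lower, with a median of -0.53. Of 20 further Polycomb genes, 4 were higher and 10 lower, with a median of -0.20. Those that fell most were Aebp2 (-1.69) and Phf19 (-1.52) of complex 2 and Phc3 (-1.45) of complex 1. Bap1 (1.15), Phc2 (0.63), Yaf2 (0.37) and Rbbp4 (0.22) rose, and Mtf2 (-0.12), Phf1 (0.15) and Rbbp7 (0.14) did not pass. The H3K9 methyltransferase Suv39h2 fell as well (-1.56). Over 2 were only Bcl11a, a SWI/SNF-associated zinc finger gene, at 0.14 FPKM in αTC1 and 3.6 ± 0.53 FPKM (SD, n = 3) in βTC6 (4.30), which passed the FPKM filter through βTC6 only, and Gadd45a, a stress gene linked to DNA demethylation, at 274 ± 2.04 and 55.7 ± 3.88 FPKM (SD, n = 3; -2.26). Tdg, the glycosylase that removes oxidised methylcytosine, rose from 12.3 ± 1.52 to 36.4 ± 2.06 FPKM (SD, n = 3; log2 fold change 1.55, adjusted p = 9.89e-07 from edgeR). In 3 pairs of SWI/SNF subunits that neurons exchange, the neuronal Actl6b (1.21) and Ss18l1 (0.64) were higher and their partners Actl6a (-0.54) and Ss18 (-0.53) lower, whereas neuronal Dpf1 (-0.88) was lower and its partner Phf10 (0.36) higher. Their paralog Dpf3 rose (1.07), and Dpf2 did not pass (-0.03).

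Open chromatin at the regulators differed between the lines at most peaks. The values are normalized read counts, in which the lowest value of a library stands for 1 read, and were tested with limma on log2(value + 1) over all 65053 peaks. At an FDR under 5%, 143 of the 423 peaks (33.8%) were more open in βTC6, against 39.9% of all peaks, and 179 (42.3%) were more open in αTC1, against 38.1%. With a log2 fold change over 1, the counts were 108 (25.5%, against 29.8%) and 80 (18.9%, against 19.2%), and over 2 they were 47 (11.1%, against 12.9%) and 23 (5.44%, against 5.38%). Within replicates 1 to 3 the last counts were 45 and 19, and within replicates 4 and 5 they were 51 and 30. The share called at the regulators was thus near that of all peaks. The counts over 2 moved with the processing. They were 73 higher and 33 lower with edgeR on recovered reads, 30 and 32 after quantile normalization, and 7 and 4 with limma on log2(value + 5). The median log2 fold change was -0.14 over the 423 peaks and 0.00 over all.

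Promoter peaks were mostly lower in βTC6, and distal peaks went both ways. Of the 99 peaks within 2 kb of a transcription start site, 60 were lower and 9 higher in βTC6 at an FDR under 5%, or 60.6% and 9.09%, against 52.3% and 23.4% of all 14582 promoter peaks. Over 1, 3 were higher and 16 lower (3.03% and 16.2%, against 13.2% and 12.9%), and over 2, 1 was higher and 3 lower (1.01% and 3.03%, against 5.51% and 1.41%). Their median was -0.51, and that of all promoter peaks -0.31. The 324 distal peaks were near balance, with 134 higher and 119 lower (41.4% and 36.7%, against 44.6% and 34.0% of all distal peaks) and a median of 0.03. Of the 194 peaks 2 to 100 kb away, 62 were higher and 83 lower (32.0% and 42.8%), with a median of -0.19, against 37.9% and 38.8% and a median of -0.03 over all 34429 peaks at that distance. Of 130 peaks more than 100 kb away, 72 were higher and 36 lower (55.4% and 27.7%), with a median of 0.95, near the 59.0% and 23.8% and the median of 0.91 over all 16042 peaks at that distance.

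**Figure D4:**
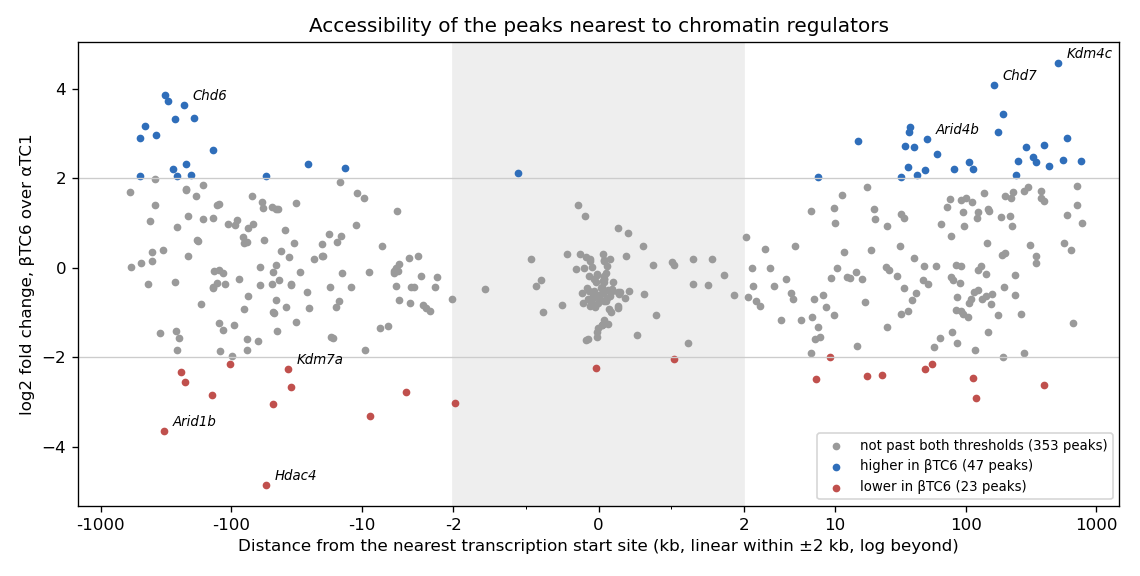
Log2 fold change of accessibility (βTC6 over αTC1, y axis) of the 423 peaks against distance from the nearest transcription start site (x axis in kb, linear within 2 kb in the shaded band, log beyond). The 47 peaks called higher in βTC6 (blue) and the 23 called lower (red) lie almost all outside the band, and the Hdac4 peak at -4.86 and the Kdm4c peak at 4.57 are the extremes.

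Of the 37 regulators with a promoter peak whose transcripts fell, 30 had a less open promoter in βTC6 at an FDR under 5% and 2 a more open one, a share of 81.1% less open against 82.0% of all genes that fell. Of the 17 whose transcripts rose, 5 had a less open promoter and 2 a more open one (29.4% and 11.8%, against 34.9% and 36.1% of all genes that rose). The Kdm3a promoter peak, 168 bp upstream of the start site, had 125 to 164 normalized reads over 5 αTC1 libraries and 43.1 to 51.5 over 5 βTC6 libraries (log2 fold change -1.61, SE 0.09, adjusted p = 5.36e-12 from limma). The Ezh2 promoter peak had 116 ± 18.6 reads in αTC1 and 45.1 ± 4.53 in βTC6 (SD, n = 5; -1.34, adjusted p = 9.32e-10 from limma). The median of the other promoter peaks of chromosome 6, which carries both, was -1.09. At Dnmt1, on chromosome 9 where that median was -0.33, the promoter peak had 42.3 to 49.0 reads in αTC1 and 11.5 to 20.3 in βTC6 (-1.60, adjusted p = 6.34e-10 from limma). The other 3 Dnmt1 peaks, in introns, also fell, by -1.56 to -2.03. Smarca4 (-1.28) and Kdm5a (-1.55) had lower promoter peaks too.

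At Smarcd3 and Dnmt3a promoter and transcript went opposite ways. Over the 77 regulators with both values, 56 had the same sign (72.7%), against 65.6% of 9543 genes, and the correlation across genes, which are not independent replicates, was 0.35 for the regulators and 0.74 for all genes. Among the 14 with a promoter peak whose expression changed by over 1, 4 had opposite signs: Hdac5, Dnmt3a, Arid3a and Smarcd3, of which the promoter peaks of Hdac5 and Arid3a (-0.29, adjusted p = 0.0735 from limma) did not pass. The Smarcd3 promoter peaks were more open in βTC6, where the transcript was lower. The peak 277 bp upstream had 0.43 to 4.62 reads in αTC1 and 6.10 to 9.94 in βTC6 (1.41, SE 0.29, adjusted p = 1.77e-04 from limma), and that 1105 bp upstream had 1.58 ± 0.61 and 10.1 ± 1.73 reads (SD, n = 5; log2 fold change 2.12). The Dnmt3a promoter peak fell from 41.1 ± 3.26 to 22.9 ± 4.41 reads (SD, n = 5; -0.84, adjusted p = 2.70e-06 from limma) although the transcript rose. At Hdac5 the promoter peak had 12.4 to 23.2 reads in αTC1 and 11.1 to 18.3 in βTC6, with overlapping groups (-0.25, adjusted p = 0.170 from limma, and 0.0136 without αTC1 replicate 5), beside a 4.66-fold higher transcript.

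The 200 bases upstream of the gene start are shown for Kdm3a and Ezh2, where promoter and transcript both fell, for Smarcd3, where they went opposite ways, and for Hdac5, where the transcript rose and the promoter peak did not pass, because the windows overlap the promoter peaks, in mm9 on the minus strand as the gene is read, and none overlaps an annotated exon. Capitals mark exact matches, on either strand, to the E2F letters TTCCCGC, the CCAAT box (ATTGG on the other strand) or the GC box GGGCGG. The core of the low-oxygen response element was searched too, only in its form ACGTG, and none of the 4 windows held that form (14.6% of promoters did). The form with a first G was not searched, and the printed Kdm3a, Ezh2 and Smarcd3 windows do hold it on either strand.
Kdm3a, chr6:71582900-71583099: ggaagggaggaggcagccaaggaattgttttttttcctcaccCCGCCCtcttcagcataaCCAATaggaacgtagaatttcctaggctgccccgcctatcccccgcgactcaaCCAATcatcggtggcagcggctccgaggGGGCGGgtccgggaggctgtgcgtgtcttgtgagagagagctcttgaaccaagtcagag
Ezh2, chr6:47545341-47545540: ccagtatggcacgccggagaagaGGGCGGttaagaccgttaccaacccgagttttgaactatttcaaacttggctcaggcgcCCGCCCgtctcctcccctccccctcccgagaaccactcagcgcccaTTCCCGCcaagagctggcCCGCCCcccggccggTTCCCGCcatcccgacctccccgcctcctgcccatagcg
Smarcd3, chr5:24107831-24108030: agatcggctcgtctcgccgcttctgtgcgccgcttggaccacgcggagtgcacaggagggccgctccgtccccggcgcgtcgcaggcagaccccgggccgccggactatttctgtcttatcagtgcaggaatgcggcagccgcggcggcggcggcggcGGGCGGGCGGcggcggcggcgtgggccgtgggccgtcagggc
Hdac5, chr11:102091481-102091680: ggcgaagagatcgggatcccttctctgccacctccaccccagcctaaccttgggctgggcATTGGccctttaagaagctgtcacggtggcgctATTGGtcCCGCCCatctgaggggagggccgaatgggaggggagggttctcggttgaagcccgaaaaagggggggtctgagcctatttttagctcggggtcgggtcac
The Ezh2 window held 2 E2F matches, a motif found in 3.97% of the same window at 22380 protein-coding genes. Kdm3a and Hdac5 held 2 CCAAT boxes each (30.6% of promoters held any). GC boxes were in all 4 windows (38% of promoters), and 76% of the Smarcd3 window was G or C. These matches are descriptions of the letters and say nothing of what binds there.

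Away from promoters, the largest change belonged to a peak 54.5 kb upstream of Hdac4. It had 92.4, 86.0, 91.8, 87.3 and 91.6 normalized reads in the αTC1 libraries and 1.85, 2.46, 4.59, 2.14 and 0.75 in βTC6 (log2 fold change -4.86, SE 0.20, adjusted p = 9.70e-14 from limma). It stood in a row of αTC1 peaks: of the 17 peaks annotated to Hdac4, 14 fell by over 1 and 5 of these by over 2, none rose at an FDR under 5%, and the median was -1.83, where the other peaks of chromosome 1 had a median of -0.61. Of all 65053 peaks, 19.2% fell by over 1 and 5.38% by over 2. The peak in this row 123.7 kb upstream, at 46.4 ± 4.0 and 44.5 ± 4.57 reads (SD, n = 5), did not pass (-0.06, adjusted p = 0.574 from limma). The Hdac4 transcript fell as well, as given above.

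Kdm7a peaks fell in the same way. The peak 36.6 kb upstream had 94.0 to 105 reads in αTC1 and 16.1 to 25.2 in βTC6 (-2.26, SE 0.10, adjusted p = 3.96e-13 from limma), and 5 of the 7 Kdm7a peaks fell by over 1, while 1 rose (1.34), where 19.2% of all peaks fell and 29.8% rose by over 1. Against the median of -0.78 of the other chromosome 6 peaks, the named peak was at -1.48. Kdm7a stands in the RNA-seq tables under its older symbol Jhdm1d, outside the symbol rule. It encodes a demethylase of H3K9 and H3K27 and had 15.0 to 20.4 FPKM in αTC1 and 3.84 to 4.58 FPKM in βTC6 (-1.89, adjusted p = 1.15e-06 from edgeR, and -1.13 against the median of its chromosome). At Arid1b, a peak 326.3 kb upstream had 28.4 to 42.6 reads in αTC1 and 0.99 to 2.43 in βTC6 (-3.65, SE 0.19, adjusted p = 2.48e-12 from limma), while the transcript was higher in βTC6. The 33 Arid1b peaks went both ways, with 7 higher and 12 lower by over 1, and 5 and 4 by over 2. Close to a start site, the Hdac11 peak 1981 bp upstream fell from 17.8 ± 3.24 to 1.32 ± 0.41 reads (SD, n = 5; -3.01).

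In βTC6 the most changed peak lay 512.3 kb from Kdm4c, in intergenic DNA. It had 0.84 to 1.55 reads over the αTC1 libraries and 48.3, 52.7, 45.1, 49.9 and 63.1 in βTC6 (4.57, SE 0.15, adjusted p = 6.95e-15 from limma). An intronic peak of Arid4b, 50.5 kb inside the gene, rose from 4.62 to 7.23 reads to 47.8 to 57.1 reads (2.88, SE 0.12, adjusted p = 1.27e-13 from limma), though the Arid4b promoter peak (-0.78) and transcript (-0.51) were lower. A coding exon of Chd7, 163.8 kb inside the gene, held a peak of 0.68 ± 0.45 and 26.8 ± 3.75 reads (SD, n = 5; 4.08), with no detected change of the transcript (0.04, adjusted p = 0.771 from edgeR). Of 22 peaks annotated to Chd6, 12 rose by over 1, 8 of them by over 2, and none fell by over 1. The 12 reached from 194 to 595.6 kb upstream, and of all peaks more than 100 kb from a start site 48.1% rose by over 1 and 21.8% by over 2. The farthest 4 of the 12 lay in introns of Ptprt. The peaks 230.7 and 307.4 kb upstream of Chd6 had 2.56 ± 0.89 and 1.22 ± 0.37 reads in αTC1 and 42.2 ± 3.21 and 28.5 ± 3.78 in βTC6 (SD, n = 5; 3.63 and 3.74). The Chd6 transcript was lower in βTC6, at 6.64 to 9.60 against 11.9 to 13.7 FPKM (-0.48, adjusted p = 0.00312 from edgeR), so a peak named by its nearest gene need not follow that gene.

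The middle 200 bases of 6 of these peaks are shown, 3 for each line, since they had the smallest p-values of the limma test in each direction (mm9, plus strand, no annotated exon within). Capitals mark exact matches, on either strand, to the homeodomain core TAATTA, the forkhead letters TGTTTAC, the E-box CAGCTG or the AP-1 letters TGACTCA.
Hdac4 (αTC1), chr1:94099345-94099544: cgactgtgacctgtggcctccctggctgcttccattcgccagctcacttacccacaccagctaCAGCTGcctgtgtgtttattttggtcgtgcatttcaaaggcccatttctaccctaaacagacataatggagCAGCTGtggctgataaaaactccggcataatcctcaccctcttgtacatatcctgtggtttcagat
Kdm7a (αTC1), chr6:39193233-39193432: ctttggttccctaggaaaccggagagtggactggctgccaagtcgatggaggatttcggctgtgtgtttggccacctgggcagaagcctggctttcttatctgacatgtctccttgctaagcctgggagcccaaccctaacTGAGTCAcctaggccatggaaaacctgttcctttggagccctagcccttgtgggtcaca
Arid1b (αTC1), chr17:4668632-4668831: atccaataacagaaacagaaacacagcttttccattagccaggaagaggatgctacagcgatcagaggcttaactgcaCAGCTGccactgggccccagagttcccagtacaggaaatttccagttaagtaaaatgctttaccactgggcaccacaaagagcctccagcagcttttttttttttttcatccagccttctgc
Kdm4c (βTC6), chr4:74409942-74410141: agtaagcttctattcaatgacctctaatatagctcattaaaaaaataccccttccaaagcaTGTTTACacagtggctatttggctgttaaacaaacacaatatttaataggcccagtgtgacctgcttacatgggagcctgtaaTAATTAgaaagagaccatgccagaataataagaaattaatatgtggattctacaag
Arid4b (βTC6), chr13:14206485-14206684: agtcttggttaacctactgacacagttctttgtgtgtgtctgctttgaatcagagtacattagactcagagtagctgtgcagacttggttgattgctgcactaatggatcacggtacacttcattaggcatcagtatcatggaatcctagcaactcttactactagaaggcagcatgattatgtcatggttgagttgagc
Chd6 (βTC6), chr2:161165412-161165611: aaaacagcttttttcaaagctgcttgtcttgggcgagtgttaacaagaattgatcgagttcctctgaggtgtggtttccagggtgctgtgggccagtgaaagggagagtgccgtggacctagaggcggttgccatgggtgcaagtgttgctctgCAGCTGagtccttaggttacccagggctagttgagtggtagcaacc
The Hdac4 window held 2 CAGCTG E-boxes and the Kdm4c window 1 homeodomain core and 1 forkhead match. CAGCTG was in 11 of the 23 regulator peaks called lower in βTC6 (47.8%) and 5 of the 47 called higher (10.6%), against 17.2% of all 65053 peaks, 31% of all 3502 peaks called lower and 14.3% of all 8409 called higher. TAATTA was in 1 of the 23 (4.35%) and 6 of the 47 (12.8%), against 4.2% of all peaks called lower, 13% of all called higher and 6.93% of all peaks. TGTTTAC was in 8.70% and 8.51%, against 8.54%, 7.9% and 6.31%, and TGACTCA in 17.4% and 8.51%, against 12.1%, 8.06% and 7.63%. The gap to all peaks called in the same direction was largest for CAGCTG in peaks lower in βTC6, and with 23 such peaks these shares are a description.

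The mixtures gave the same peaks in libraries that played no part in the calls. Averaged over the 47 peaks called higher in βTC6, the level was 16.3 ± 0.82 normalized reads in pure βTC6 (SD, n = 5), 14.6 with 10% αTC1 cells, 8.03 with 50%, 2.14 with 90% and 1.51 ± 0.10 in pure αTC1. Over the 23 peaks called lower it was 3.18 ± 0.48 in pure βTC6, 5.15, 14.1 and 24.7 in the same mixtures, and 25.7 ± 1.68 in pure αTC1. For all 70 peaks the mixture with 90% αTC1 cells lay on the αTC1 side of that with 10%. The mixtures pool the same lines, and the peaks were picked for a large difference between them. This direction therefore follows from the choice and is no result about the regulators. There was a single library per composition, and mixture values therefore carry no replicate error.

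Single peaks were related to the αTC1 percentage over the 9 mixtures for 13 peaks, the 5 of each direction with the smallest limma p among those past a log2 fold change of 2, and the promoter peaks of Hdac5, Kdm3a and Smarcd3, by exact 2-sided permutation tests adjusted over the 13. The Hdac4 peak 54.5 kb upstream rose from 10.6 to 87.0 reads between 10% and 90% αTC1 cells (r = 0.96, rho = 0.98, adjusted exact p = 5.37e-05 and 9.21e-05). Without the 10% and 90% mixtures r was 0.97. The Kdm4c peak fell from 57.8 to 4.67 reads (r = -0.98, rho = -0.98; r = -0.98 without the outermost mixtures). The Kdm3a promoter peak rose from 60.2 to 142 reads (r = 0.97). The Smarcd3 promoter peak fell from 5.78 to 2.44 reads (r = -0.80, rho = -0.73, adjusted exact p = 0.00961 and 0.0337), and its relation weakened without the outermost mixtures (r = -0.70, adjusted exact p = 0.0757). Of the 13, 12 passed at an adjusted exact p under 0.05, and the Hdac5 promoter peak did not (r = 0.64, rho = 0.53, adjusted exact p = 0.0574 and 0.148). On log2 of the normalized read count + 1 all 13 passed, the Hdac5 peak at an adjusted exact p of 0.0473. The peaks picked for a large difference between the pure lines would follow the percentage by that choice.

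**Figure D5:**
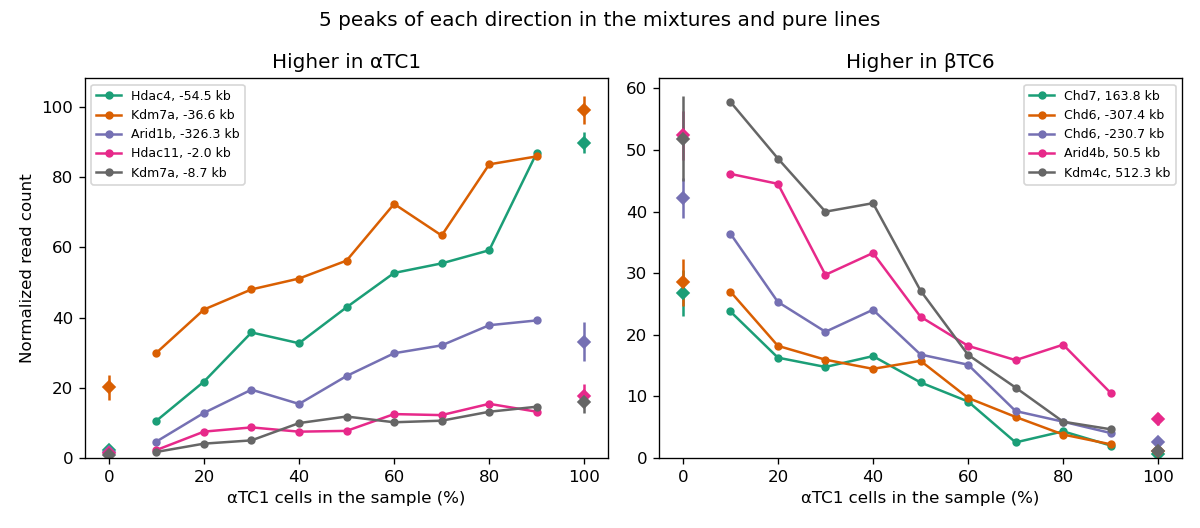
Normalized read count (y axis) of the 5 peaks of each direction with the smallest limma p among those past a log2 fold change of 2, against the percentage of αTC1 cells (x axis), with circles for the 9 mixtures and diamonds with SD bars at 0% and 100% for the 5 pure libraries of each line. The Hdac4 peak climbs from 10.6 to 87.0 reads across the mixtures and the Kdm4c peak descends from 57.8 to 4.67.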

How the data were processed

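RNA was measured in 6 libraries and open chromatin in 19. The RNA-seq expected counts and FPKM values are those the authors deposited per gene, from RSEM 1.2.12 after trimming (Trim Galore) and Bowtie2 alignment to mm9. The expected counts were rounded to whole numbers. The deposited ATAC-seq signal is a normalized read count: per the labels and methods, reads passed through Trimmomatic 0.32, BWA 0.7.9a (mm9) and duplicate removal in Picard 1.95, and the authors called peaks with MACS2 2.1.0, merged those seen in more than 1 library with DiffBind 2.2.5, scaled counts by TMM and annotated peaks with HOMER 4.6. In each library 100% of the values were whole multiples of the lowest (within 0.01 read), so reads were recovered. edgeR on these called 19533 of all peaks (13794 higher in βTC6 and 5739 lower) past a log2 change of 2 in either direction at 5% FDR. Counting error depends on these totals, and deeper libraries give tighter values.

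Genes were tested with edgeR 4.0.16 (glmQLFit, TMM, 92 spike-in rows left out) and peaks with limma 3.58.1 (trend, pseudocount 1), in R 4.3.3, always across the whole table and without the mixtures. The SE of a gene is its log2 fold change over the square root of F. On simulated tables with 200 features changed by a log2 fold change of 1, edgeR called 198 (of 12195 genes, with 6 false calls) and limma 165 (of 65053 peaks, with 5 false calls). These tables used the same fixed spread for every feature and far fewer changed features than the real ones. The changed peaks were drawn only from those with more reads. The figures are therefore no rates of missed or false calls for the real data. Groups came from the labels, and 0 columns were left unmapped. Positions are mm9, from the GENCODE M1 annotation for genes and from the peak table, read as 1-based. The symbols, lists and rules were chosen with earlier results of these data known. Named genes were those past a log2 fold change of 2, the most changed and most abundant gene of each role group, and 21 fixed genes, and the remaining values in brackets, some of genes outside that rule, were chosen after values were seen, as was the counting of αTC1 replicates 1 and 2 as 1 sample and the setting of each value against its chromosome median. Alternatives covered normalization, the test, the filter, the pseudocount, spike-in scaling, a replicate block and each library left out.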

Additional observations from a re-analysis of the deposited data

Results flagged for a closer look

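In 6 of 86 groups of 5 libraries examined (43 peaks in each line), the highest or lowest library stood off from the other 4 by Dixon's test, where chance gives about 1 group in 20. The Hdac5 promoter peak was lowest in replicate 5 of both lines, at 12.4 normalized reads against 20.6 to 23.2 in αTC1 and at 11.1 against 16.8 to 18.3 in βTC6. Replicate 5 was also the lowest library at the Kdm1a promoter in βTC6 (15.0 against 20.7 to 22.4) and at the Smarcb1 promoter in αTC1 (30.8 against 37.4 to 39.4). The Hdac6 promoter peak was highest in βTC6 replicate 1, at 28.0 against 25.0 to 25.7, and the Tet2 promoter peak lowest in βTC6 replicate 3, at 58.4 against 66.7 to 69.3.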

How the results depend on the processing

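Gene counts are given as higher and then lower in βTC6. On log2(FPKM + 1), limma called 4 regulators higher past a log2 fold change of 1, and 0 higher and 1 lower past 2. Without the FPKM filter, 3 regulators and 2 other chromatin genes were higher past 2. Scaled to the spike-in total, which ranged from 112307 to 238372 counts per library, 6 regulators were higher and 13 lower at an FDR under 5%, and 6 and 8 other chromatin genes. The calls of 18 named genes were lost under it, with folds near the main ones and a larger SE, among them Dnmt1 (-1.02, SE 0.42, adjusted p = 0.0524), Kdm6a (0.98, adjusted p = 0.0695) and Smarca4 (-0.92, adjusted p = 0.0862). Set against the chromosome median, an alternative chosen after seeing the data, 8 regulators were lower past 1, and 0 higher and 1 lower past 2. Among called regulators, the sign then turned for Chd8 (-0.32), Smarcal1 (0.22), Chd4 (0.11), Smarca2 (-0.055), Suz12 (-0.14), Tet3 (0.51) and, among the named genes' promoter peaks, those of Chd4 (0.17) and Rnf2 (0.036), and quantile normalization turned the Smarca5 promoter peak (0.014). With αTC1 replicates 1 and 2 averaged into 1 sample, also chosen after seeing the data, 22 regulators were higher and 39 lower at an FDR under 5%.

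For the peaks, edgeR on recovered reads called 73 higher and 33 lower past 2. Quantile normalization called 30 higher and 32 lower past 2, and 80 and 88 past 1, so the excess toward βTC6 was gone. A pseudocount of 5 called 56 higher and 55 lower past 1, and 7 and 4 past 2. With a mean of at least 5 normalized reads, 90 were higher and 154 lower, 62 and 66 of them past 1, and 35 and 21 past 2. Among peaks within 2 kb of a start site only, 9 were higher and 60 lower, 3 and 16 past 1, and 1 and 3 past 2, since fewer peaks entered. The cause of the other shifts was not tested.

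Leaving out 1 library at a time gave 21 to 25 regulators higher and 38 to 41 lower, 6 to 11 and 13 to 15 past 1, and 1 to 1 and 2 to 3 past 2. The high of 11 came without αTC1 replicate 3. It gave 25 to 29 and 47 to 50 other chromatin genes, 7 to 8 and 6 to 10 past 1. It gave 139 to 145 and 170 to 183 peaks, 104 to 113 and 79 to 85 past 1, and 45 to 47 and 21 to 25 past 2. Replicate numbers did not pair the samples, with correlations between same-numbered libraries of -0.04 to 0.02 in RNA-seq and up to 0.07 in ATAC-seq. A fit with the replicate block gave 23 and 43 regulators, 8 and 14 past 1, and 149 and 182 peaks. The Smarca2 call was lost under it (adjusted p = 0.0552) and Smarcb1 passed (0.0492). Genes near the FPKM minimum and peaks of few reads have the least precise values.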
